A study of Mus musculus with 24 samples.

Results

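De novo lipogenesis, the synthesis of fatty acids from carbohydrate-derived acetyl-CoA, was followed through 10 genes in isolated hepatocytes of aged mice. The genes were Srebf1, Mlxipl, Acly, Acaca, Acacb, Fasn, Scd1, Elovl6, Me1 and Thrsp. They were found by gene name, each on a single row, among the 55421 genes listed in the count and FPKM tables, and all 10 passed the filter on low counts that left 13847 genes for testing.

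The animals were 24 male C57BL/6J mice, given either vehicle or encapsulated rapamycin (eRapa, 42 ppm) in their feed from 4 months of age. Rapamycin inhibits the kinase mTOR, which links insulin and nutrients to growth. From 18 months, for 9 weeks, 8 mice were kept on the normal diet, with vehicle (ND+veh). Another 7 were moved to a high-fat diet, with 60% of calories from fat, and vehicle (HFD+veh), and 9 to the same high-fat diet with eRapa (HFD+eRapa). Hepatocytes were obtained by perfusion of the liver and a Percoll gradient, and their polyadenylated RNA was sequenced. There was no group on normal diet with eRapa, so the drug can be compared with vehicle on the high-fat diet alone.

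Libraries held 17739252 to 25945134 counts. The 8 hepatocyte markers checked, among them Alb and Hnf4a, summed to between 50255 and 159394 CPM (counts scaled to library size) and were detected in every group. Markers of other liver cells were present as well. The 9 macrophage markers summed to a median of 241 CPM in ND+veh (41.3 to 1161), 2321 in HFD+veh (164 to 4516) and 184 in HFD+eRapa (13.4 to 981). The 5 adipocyte markers stayed at or below 11.1 CPM in all libraries. In bulk libraries, fewer cells of a type and less RNA per cell cannot be told apart.

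In the liver, insulin and glucose drive this pathway through a pair of transcription factors. SREBP1, encoded by Srebf1, is released from the membrane of the endoplasmic reticulum by proteolysis in response to insulin, and ChREBP, encoded by Mlxipl, responds to glucose metabolites. ATP citrate lyase (Acly) cleaves citrate to cytosolic acetyl-CoA, the acetyl-CoA carboxylases (Acaca and Acacb) make malonyl-CoA, and fatty acid synthase (Fasn) joins these units into palmitate. Elovl6 lengthens palmitate, Scd1 introduces a double bond, and malic enzyme (Me1) supplies NADPH. Thrsp (Spot 14) is a small protein that responds to thyroid hormone and carbohydrate and acts on acetyl-CoA carboxylase.

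The genes lie at separate places of the genome (GRCm38, the assembly also called mm10, and its Gencode annotation, coordinates from 1). Srebf1 is at chr11:60199089-60222581, Acly at chr11:100476353-100528000 and Fasn at chr11:120805846-120824547, all on the minus strand of chromosome 11, which also carries Acaca on the plus strand at chr11:84129672-84401651. Mlxipl (chr5:135089890-135138382) and Acacb (chr5:114146535-114250761) are on the plus strand of chromosome 5. Scd1 is at chr19:44394455-44407879, Me1 at chr9:86581371-86695953 and Thrsp at chr7:97412938-97417730, all on the minus strand, and Elovl6 is on the plus strand at chr3:129532355-129638495. Reads were counted over the exons of a gene as a whole, so transcripts from the several starts of Srebf1, Mlxipl and Me1 were pooled. Whether the counting used strand was not stated. Srebf1 overlaps Rai1 on the opposite strand, but Rai1 had a mean of 219.5 counts per library beside 7935 for Srebf1.

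RefSeq promoter windows (GRCm38.p6) were found for 9 of the 10 genes, all but Scd1, in 13 windows, and the 250 bases before each start were searched on both strands. The E-box CACGTG was found before 1 gene, Mlxipl, and in 6.02% of the 32851 windows of all genes. A sterol regulatory element, TCACNCCAC, was also found before Mlxipl alone, at its other start, and in 1.05% of all windows. CCAAT was found before 6 of the 9 genes and in 33.8% of all windows, and the GC box GGGCGG before 4 and in 32.7%. Srebf1, Mlxipl and Me1 had more than 1 window each, so counts of genes and shares of windows are not directly comparable. The spaced double element recognised by ChREBP was found in none of the 13 windows and in 0.280% of all windows. The windows below are those of Mlxipl, which held both of the rarer motifs, and of Fasn and Thrsp, each with several CCAAT matches. Capitals mark every motif match on either strand, and overlapping matches run together, as in Fasn. A match is a run of letters and says nothing of binding. The windows, read 5′ to 3′ on the strand of the gene, are chr5:135089640-135089889 and chr5:135106641-135106890 (plus strand) for Mlxipl, chr11:120824548-120824797 (minus strand) for Fasn and chr7:97417551-97417800 (minus strand) for Thrsp.
Mlxipl, upstream start: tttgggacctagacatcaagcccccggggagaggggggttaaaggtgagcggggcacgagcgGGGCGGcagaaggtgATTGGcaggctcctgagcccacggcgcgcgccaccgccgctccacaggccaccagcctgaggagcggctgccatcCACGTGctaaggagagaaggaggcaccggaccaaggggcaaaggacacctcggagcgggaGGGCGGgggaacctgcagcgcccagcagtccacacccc
Mlxipl, downstream start: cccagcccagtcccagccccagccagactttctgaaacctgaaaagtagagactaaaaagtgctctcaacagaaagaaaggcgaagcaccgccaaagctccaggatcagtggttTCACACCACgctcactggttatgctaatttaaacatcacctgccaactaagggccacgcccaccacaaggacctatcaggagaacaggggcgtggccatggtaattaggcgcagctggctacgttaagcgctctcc
Fasn: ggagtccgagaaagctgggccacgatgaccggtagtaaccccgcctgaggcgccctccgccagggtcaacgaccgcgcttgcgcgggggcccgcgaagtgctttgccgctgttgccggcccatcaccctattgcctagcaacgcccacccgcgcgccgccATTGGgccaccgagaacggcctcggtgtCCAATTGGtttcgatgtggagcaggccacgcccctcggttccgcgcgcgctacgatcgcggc
Thrsp: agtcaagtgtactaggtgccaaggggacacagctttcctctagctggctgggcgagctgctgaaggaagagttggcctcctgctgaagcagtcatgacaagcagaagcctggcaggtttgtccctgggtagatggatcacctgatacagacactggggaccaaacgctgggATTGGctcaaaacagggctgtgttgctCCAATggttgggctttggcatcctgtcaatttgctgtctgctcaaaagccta

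Per length of transcript, Scd1 was by far the most abundant of the 10 genes. In ND+veh its mean was 4280 ± 1480 FPKM (SD, n = 8; FPKM, fragments scaled to transcript length and library size), 12.8-fold the level of Fasn at 336 ± 173. The lowest ND+veh animal in Scd1 (1234 FPKM) was above the highest in Fasn (597). Behind these came Thrsp (257), Me1 (177), Acly (129), Srebf1 (104), Mlxipl (74.0), Elovl6 (41.0), Acaca (35.1) and Acacb (21.96), as mean FPKM in ND+veh. Each of the 8 neighbouring pairs after Scd1 and Fasn in that order overlapped between animals. Scd1 alone held a median of 2.30% of all counts in ND+veh, 0.687% in HFD+veh and 0.474% in HFD+eRapa.

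The first comparison asked how the high-fat diet changed these genes in vehicle-treated animals. Of the 10 genes, 7 were called lower in HFD+veh relative to ND+veh (edgeR quasi-likelihood test, adjusted p under 0.05) and none higher. Scd1, Acacb, Fasn, Mlxipl, Elovl6, Me1 and Acaca fell, by 3.14-fold to 1.69-fold. Srebf1, Acly and Thrsp did not pass the test. Over all genes tested, 9.86% were called lower in the same comparison. The median log2 fold change was -0.99 over the 10 genes and 0.05 over all genes.

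**Figure D1:**
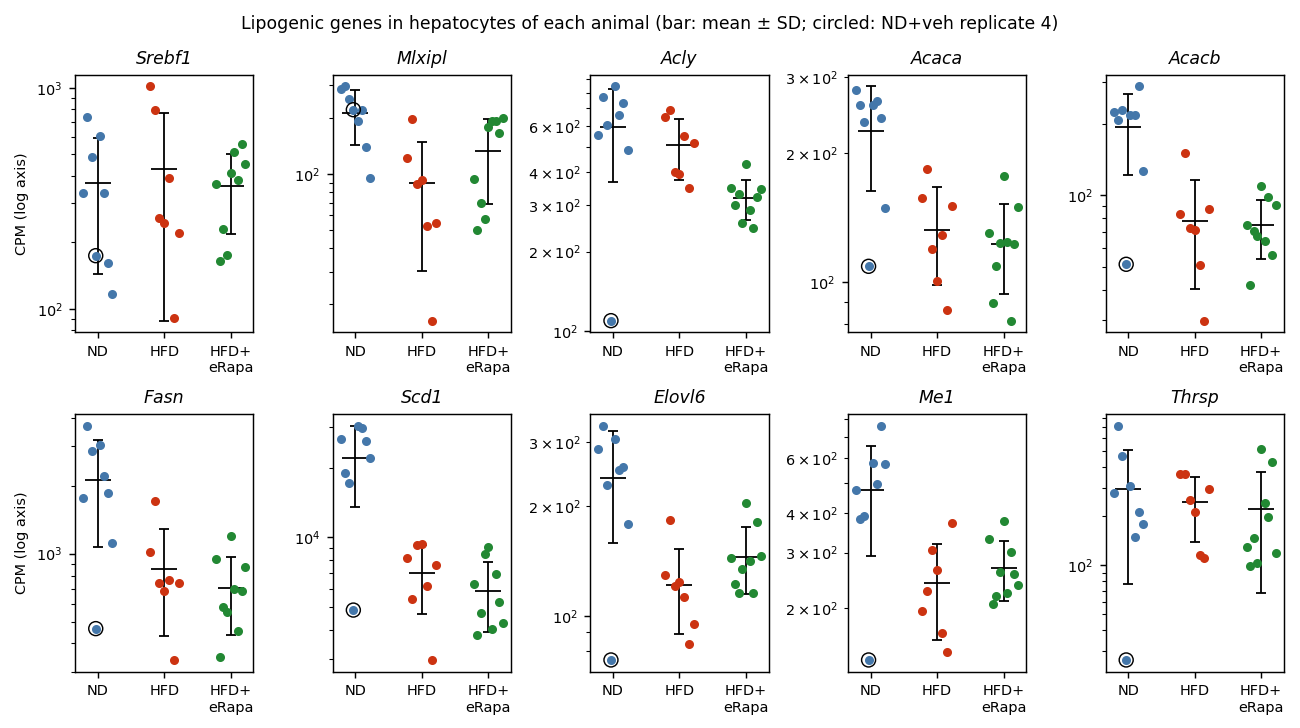
CPM of each lipogenic gene (log axis) in hepatocytes of the ND+veh (blue, n = 8), HFD+veh (red, n = 7) and HFD+eRapa (green, n = 9) animals; each point is 1 animal, and bars give the mean ± SD. The circled ND+veh animal, replicate 4, is the lowest of its group in 8 of the 10 genes, and the other ND+veh animals are above every HFD+veh animal in Scd1 and Me1.

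Scd1, the main hepatic stearoyl-CoA desaturase, changed the most. It was at 4868, 24117 and 30212 CPM in the lowest, median and highest ND+veh animal, at 2968, 7634 and 9332 in HFD+veh, and at 3795, 5282 and 9091 in HFD+eRapa. All ND+veh animals but replicate 4 were above all animals of both other groups. Scd1 was 3.14-fold lower in HFD+veh relative to ND+veh (log2 fold change -1.65, SE 0.30, edgeR adjusted p = 0.000809) and 3.74-fold lower in HFD+eRapa relative to ND+veh (log2 -1.90, SE 0.28, edgeR adjusted p = 6.37e-05).

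Fasn, which makes palmitate, was at 465, 2037 and 3698 CPM in the lowest, median and highest ND+veh animal. The same 3 values were 338, 742 and 1712 in HFD+veh and 348, 680 and 1202 in HFD+eRapa. The groups overlapped, and all 7 HFD+veh and all 9 HFD+eRapa animals were below the ND+veh median. Fasn was 2.48-fold lower in HFD+veh (log2 -1.31, SE 0.36, edgeR adjusted p = 0.0119) and 3.02-fold lower in HFD+eRapa (log2 -1.60, SE 0.33, edgeR adjusted p = 0.00185) relative to ND+veh. With limma voom in place of edgeR the first of these calls was lost (adjusted p = 0.0531).

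The acetyl-CoA carboxylases fell by unequal estimates. Acacb, the mitochondrial form whose malonyl-CoA restrains fatty acid entry into mitochondria, was at 51.2, 217 and 287 CPM (lowest, median, highest) in ND+veh, 29.7, 72.9 and 150 in HFD+veh and 42.0, 71.0 and 109 in HFD+eRapa. It was 2.49-fold lower in HFD+veh (log2 -1.32, SE 0.30, edgeR adjusted p = 0.00466) and 2.60-fold lower in HFD+eRapa (log2 -1.38, SE 0.28, edgeR adjusted p = 0.00169) relative to ND+veh. Acaca, the cytosolic form that feeds fatty acid synthase, was at 109, 249.6 and 279.9 CPM in ND+veh, 86.1, 129 and 184 in HFD+veh and 81.2, 123 and 177 in HFD+eRapa. For both genes the animals on high-fat diet were all below the ND+veh median, while the lowest ND+veh animal, replicate 4, lay within their range. Acaca was 1.69-fold lower in HFD+veh (log2 -0.76, SE 0.20, edgeR adjusted p = 0.00930) and 1.83-fold lower in HFD+eRapa (log2 -0.87, SE 0.18, edgeR adjusted p = 0.00228). The difference between the falls of both genes was not tested.

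Elovl6, the elongase of palmitate, was at 75.6, 255 and 334 CPM (lowest, median, highest) in ND+veh, 83.8, 121 and 183 in HFD+veh and 115, 141 and 205 in HFD+eRapa. Me1, the cytosolic malic enzyme, was at 137, 485 and 761 CPM in ND+veh, 145, 227 and 374 in HFD+veh and 206, 256 and 378 in HFD+eRapa. In both genes the high-fat animals lay below the ND+veh median, and ND+veh replicate 4 was the lowest of all 24 animals. Elovl6 was 1.98-fold lower in HFD+veh (log2 -0.99, SE 0.22, edgeR adjusted p = 0.00389) and 1.66-fold lower in HFD+eRapa (log2 -0.73, SE 0.20, edgeR adjusted p = 0.0181) relative to ND+veh. Me1 was 1.98-fold lower in HFD+veh (log2 -0.99, SE 0.25, edgeR adjusted p = 0.00813) and 1.77-fold lower in HFD+eRapa (log2 -0.82, SE 0.23, edgeR adjusted p = 0.0180).

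Of the transcription factor genes, Mlxipl passed the test in HFD+veh and Srebf1 in no comparison, and the difference between them was not tested. Mlxipl was at 95.2, 221 and 296 CPM (lowest, median, highest) in ND+veh, 16.4, 88.2 and 199 in HFD+veh and 50.1, 166 and 199 in HFD+eRapa. It was 2.38-fold lower in HFD+veh relative to ND+veh (log2 -1.25, SE 0.40, edgeR adjusted p = 0.0267). That call was lost without HFD+veh replicate 5 (adjusted p = 0.0516) and with no filter on low counts (adjusted p = 0.0616). In HFD+eRapa, replicates 1 to 4 were at 50.1 to 94.1 CPM and replicates 5 to 9 at 166 to 199, with no animal between. The same replicates were apart in Dbp, a gene of the circadian clock (3.94 to 19.1 and 38.5 to 117 CPM). They were also apart in macrophage marker sums (360 to 981 and 13.4 to 184 CPM) and endothelial sums (170 to 292 and 50.2 to 118 CPM). Hepatocyte marker sums in HFD+eRapa overlapped (96317 to 141460 and 50255 to 108786 CPM). Replicates 1 to 4 were apart from the later ones in the other groups too, there as the higher. Mlxipl was at 88.2 to 199 and 16.4 to 54.4 CPM in HFD+veh. In ND+veh it was at 221.7 to 296 and 95.2 to 219.9, with almost no gap. Dbp was at 12.5 to 106 and 1.36 to 4.63 CPM in HFD+veh, and at 2.30 to 21.6 and 0.664 to 0.733 in ND+veh. The part of Dbp, of other cells or of the replicate numbers in the Mlxipl values was not tested. The fitted level of Mlxipl in HFD+eRapa was 1.60-fold below ND+veh, which did not pass the test (log2 -0.68, 95% interval -1.44 to 0.09, edgeR adjusted p = 0.257).

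Srebf1 was at 117, 334 and 741 CPM (lowest, median, highest) in ND+veh, 90.9, 256 and 1016 in HFD+veh and 165, 382 and 555 in HFD+eRapa. The ranges lay over each other. Its log2 fold change was 0.22 in HFD+veh against ND+veh (95% interval -0.70 to 1.14, edgeR adjusted p = 0.740) and -0.03 in HFD+eRapa against ND+veh (95% interval -0.90 to 0.83). The coefficient of variation of Srebf1 in HFD+veh was 79.4%, the highest of the 10 genes in that group, with replicates 1 and 2 at 1016 and 794 CPM and the other animals at or below 389. Neither interval is narrow enough to show equal levels.

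Acly, which supplies acetyl-CoA from citrate, was at 110, 633 and 846 CPM (lowest, median, highest) in ND+veh, 349, 517 and 689 in HFD+veh and 247, 323 and 431 in HFD+eRapa. HFD+veh and ND+veh overlapped widely (log2 -0.23, 95% interval -0.76 to 0.30, edgeR adjusted p = 0.523). All 9 HFD+eRapa animals were below the medians of both other groups, and Acly was 1.86-fold lower in HFD+eRapa relative to ND+veh (log2 -0.90, SE 0.24, edgeR adjusted p = 0.0129).

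Thrsp had a wide range in all groups, at 26.3, 245 and 719 CPM (lowest, median, highest) in ND+veh, 111, 251 and 364 in HFD+veh and 98.4, 148 and 519 in HFD+eRapa. Its log2 fold changes against ND+veh were -0.26 in HFD+veh (95% interval -1.26 to 0.74) and -0.41 in HFD+eRapa (95% interval -1.34 to 0.52), and neither passed the test.

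**Figure D2:**
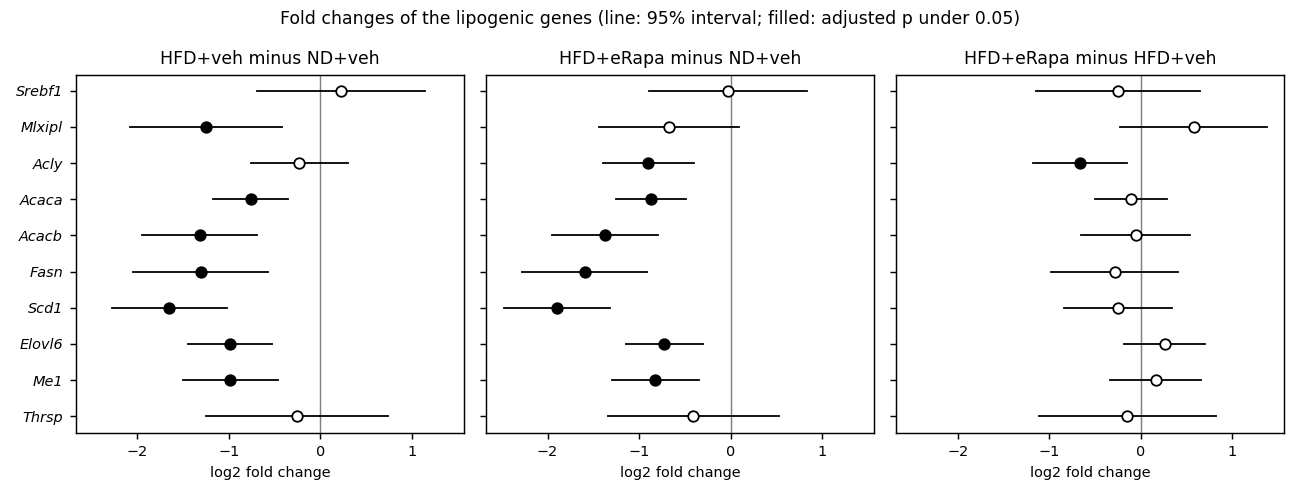
Log2 fold change of each lipogenic gene in the 3 comparisons named above the panels, from the edgeR fit of all 24 libraries; lines give 95% intervals, and filled points have an adjusted p under 0.05. Against ND+veh, 7 genes are lower in each high-fat group, and between the high-fat groups Acly alone is filled.

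The second comparison asked whether eRapa changed these genes on the high-fat diet. Over all genes tested, 32.0% were called in HFD+eRapa relative to HFD+veh, 21.1% of all genes lower and 10.9% higher. Of the 10 genes, 1 was called lower in that comparison and none higher. The gene was Acly, 1.59-fold lower with eRapa (log2 -0.67, SE 0.25, edgeR adjusted p = 0.0422). All 9 HFD+eRapa animals were below the HFD+veh median and both ranges overlapped. The Acly call was close to the threshold. It held in 10 of 24 removals of a single library, namely without HFD+veh replicates 4 or 6, HFD+eRapa replicate 5 or any ND+veh replicate but replicate 1. In the other 14 removals the log2 fold change was -0.71 to -0.58, with an adjusted p of 0.0513 to 0.0831. The call was also lost with limma voom (adjusted p = 0.163).

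The 9 other genes did not differ detectably between the high-fat groups, and their intervals bound what could have been missed. For Scd1 the log2 difference of HFD+eRapa from HFD+veh was -0.25 (95% interval -0.84 to 0.34) and for Fasn -0.28 (-0.98 to 0.41). Acaca and Acacb gave -0.11 (95% interval -0.50 to 0.28) and -0.06 (-0.66 to 0.54). Elovl6 and Me1, higher by estimate in HFD+eRapa, gave 0.26 (95% interval -0.18 to 0.70) and 0.16 (-0.33 to 0.66). The transcription factor genes and Thrsp were the least certain, with 0.58 (95% interval -0.22 to 1.38) for Mlxipl, -0.25 (-1.15 to 0.64) for Srebf1 and -0.15 (-1.12 to 0.82) for Thrsp. A call for Srebf1 appeared when a score of immune cell markers was added to the fit (log2 -1.07, edgeR adjusted p = 0.0384).

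The last comparison, of HFD+eRapa with ND+veh, held a difference in both diet and drug. Here 7 of the 10 genes were called lower and none higher, with 6.54% of all genes tested called lower and 6.93% higher. These were Scd1, Fasn, Acacb, Acly, Acaca, Me1 and Elovl6, with the values given above. The median log2 fold change was -0.85 over the 10 genes and -0.03 over all genes. This comparison shares the ND+veh animals with the first and the HFD+eRapa animals with the second.

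ND+veh replicate 4 stood apart. It was the lowest animal of its group in 8 of the 10 genes, with Acly at 110 CPM where the others were at 486 to 846, and Me1 at 137 where the others were at 383 to 761. Its hepatocyte markers summed to 54752 CPM, below the 106471 to 157996 of the others, and its macrophage markers to 394 CPM, within their range. Mlxipl, at 222 CPM, was in the middle of the group. Without this animal the same 7 genes were called lower in HFD+veh, where 11.8% of all genes were. The estimates of Scd1 and Elovl6 were then larger, at log2 fold changes of -1.84 and -1.15 in HFD+veh against ND+veh. In HFD+eRapa against ND+veh 7 genes were again called lower, with 6.37% of all genes. The Acly call between the high-fat groups then had an adjusted p of 0.00360 by edgeR. With all animals, each of the 10 genes overlapped between groups in all 3 comparisons. Over all genes, 1.23% lay wholly lower and 1.21% wholly higher in HFD+veh against ND+veh, 1.29% wholly lower and 1.29% wholly higher in HFD+eRapa against HFD+veh, and 1.23% and 2.14% in HFD+eRapa against ND+veh. Without replicate 4, Scd1 and Me1 did not overlap between ND+veh and HFD+veh, and Scd1, Me1, Acly and Acacb did not overlap between ND+veh and HFD+eRapa. Over all genes tested, 2.12% and 1.93% then lay wholly lower in the respective high-fat group.

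HFD+veh replicate 6 was the lowest of its 7 animals in all 10 genes, with Mlxipl at 16.4 CPM where the others were at 52.6 to 199 and Fasn at 338 where they were at 684 to 1712. It also had the highest macrophage marker sum of the group, at 4516 CPM, and the highest sums of lymphocyte, neutrophil and endothelial markers, at 497, 44.7 and 628 CPM. With both ND+veh replicate 4 and HFD+veh replicate 6 removed, 6 of the 10 genes were called lower in HFD+veh, with 8.13% of all genes, while Mlxipl was not (log2 -1.07, edgeR adjusted p = 0.0578).

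Markers of other cell types moved with the groups. Of the 9 macrophage markers, 4 were called higher in HFD+veh relative to ND+veh, and 7 were called lower in HFD+eRapa relative to HFD+veh. In HFD+eRapa against HFD+veh all 7 endothelial and all 8 stellate cell markers were also called lower. Of the 8 hepatocyte markers, 2 were called higher there and none lower. By group mean CPM, Apoa1, Apoa2, Asgr1 and Hnf4a had the larger value with eRapa, while Alb, Ttr, Tat and Cps1 had the smaller. Summed hepatocyte markers had a median of 113256 CPM in HFD+veh (96273 to 159394) and 100003 in HFD+eRapa (50255 to 141460). In HFD+veh against ND+veh the 3 cholangiocyte markers that could be tested, of 6, were called higher, and 4 of the 8 stellate markers were lower in HFD+eRapa against ND+veh. The part of these other cells in the results was not tested. With the score of macrophage, lymphocyte and neutrophil markers in the fit, Scd1, Acacb, Elovl6 and Me1 were still called lower in HFD+veh relative to ND+veh, while Acaca (adjusted p = 0.114), Fasn (adjusted p = 0.119) and Mlxipl (adjusted p = 0.232) were not. Over all genes, 4.55% were called lower in that fit. In that fit the log2 fold changes of Fasn and Mlxipl were -0.83 and -0.61. Against ND+veh, the 7 genes called in HFD+eRapa, where macrophage sums were near those of ND+veh, were called with that score too, as were 11.1% of all genes as lower.

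Genes of the circadian clock also differed between animals. Dbp, a transcription factor under direct clock control and chosen here after its values were seen, ran from 0.664 to 21.6 CPM in ND+veh, 1.36 to 106 in HFD+veh and 3.94 to 117 in HFD+eRapa. Arntl, a core clock gene, ran from 14.7 to 33.0, from 3.39 to 28.4 and from 4.27 to 22.3 CPM in the same groups. The time of day of collection is not given in the labels, and its part in these results was not tested. HFD+veh replicates 1 and 2, the highest in Srebf1, had the highest Dbp of that group (106 and 103 CPM). The same animals had the lowest macrophage marker sums of that group (164 and 164 CPM, others 883 to 4516). They also had its lowest endothelial marker sums (93.6 and 115 CPM, others 228 to 628). The part of Dbp or of these other cells in the Srebf1 values was not tested. Pearson's r between Dbp and each of the 10 genes was computed within each group, 30 relations in all. None passed an adjusted exact permutation p of 0.05, with 6 at an unadjusted p under 0.05, and none passed on Spearman's rho. Of the 30, 25 had a positive r, the highest for Elovl6 in HFD+veh (0.84, adjusted exact permutation p = 0.186). Mlxipl had an r of 0.65 in ND+veh, 0.78 in HFD+veh and 0.80 in HFD+eRapa (adjusted exact permutation p = 0.299, 0.190 and 0.186). For Srebf1 in HFD+veh, r was 0.77 (exact permutation p = 0.0458, adjusted p = 0.229, n = 7; rho 0.82, exact p = 0.0341, adjusted p = 0.158; r without the 2 animals farthest from the median of Dbp, 0.74). With the log ratio of Dbp to Arntl in the fit, 7 genes were again called lower in HFD+veh relative to ND+veh, with Mlxipl at a log2 fold change of -2.30, while the share of all genes called lower rose to 18.6%. The estimate of Srebf1 then turned to -0.80 (edgeR adjusted p = 0.123).

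**Figure D3:**
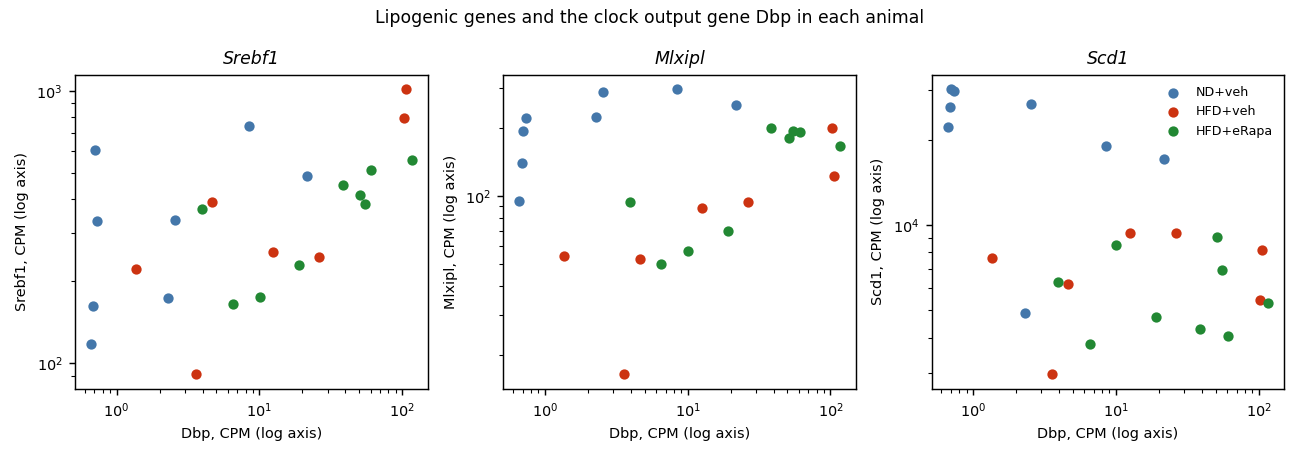
CPM of Srebf1, Mlxipl and Scd1 (log axes) against CPM of the clock output gene Dbp (log axis) in each animal; blue, ND+veh (n = 8); red, HFD+veh (n = 7); green, HFD+eRapa (n = 9). Dbp runs from 0.664 to 117 CPM over the 24 animals, and in Scd1 the ND+veh animals lie above the others but for replicate 4.

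Beyond the 10 genes, 77 genes in 8 lists around the pathway were examined, all of which could be tested. In HFD+veh against ND+veh, 16 were called lower and 7 higher, with a median log2 fold change of -0.23. In HFD+eRapa against HFD+veh, 7 were lower and 20 higher (median 0.17), and in HFD+eRapa against ND+veh, 10 were lower and 6 higher (median -0.03). The share of all genes called was 25.9%, 32.0% and 13.5% in these comparisons. Most of the 77 genes thus did not pass the test in any one comparison.

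Among regulators of SREBP, Scap, the protein that escorts SREBP from the endoplasmic reticulum, fell in HFD+veh (log2 -0.79, edgeR adjusted p = 0.00691) and was higher in HFD+eRapa relative to HFD+veh (log2 0.82, adjusted p = 0.00307). Mbtps1, the protease that makes the first cut in SREBP, gave -0.28 (adjusted p = 0.0155) and 0.38 (adjusted p = 0.00136). Insig1 and Insig2, which retain SREBP in the membrane, were called in no comparison, with log2 fold changes of -0.33 to 0.24. Of the 11 genes in this list, 3 were lower and 1 higher in HFD+veh, 4 were higher in HFD+eRapa relative to HFD+veh, and none was called against ND+veh in HFD+eRapa. The gene called higher in HFD+veh was Mbtps2, the second protease (log2 0.61, adjusted p = 0.0250), a call lost without ND+veh replicate 1 or HFD+veh replicates 3 or 6 (adjusted p up to 0.143). Srebf2, the cholesterol-side relative of Srebf1, was higher in HFD+eRapa relative to HFD+veh (log2 0.45, adjusted p = 0.0382), a call lost without HFD+veh replicates 3, 4, 5 or 6 or HFD+eRapa replicates 1, 3, 6 or 9 (adjusted p up to 0.0863). With the immune marker score in the fit, Scap was not called in either comparison (adjusted p = 0.0631 and 0.104), nor Mbtps1 in HFD+veh (adjusted p = 0.124), Mbtps2 (adjusted p = 0.357) or Srebf2 (adjusted p = 0.504).

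Among genes of glucose entry and insulin signalling, Irs2 encodes an insulin receptor substrate. It was at 20.1, 35.3 and 57.4 CPM (lowest, median, highest) in ND+veh, 4.77, 8.56 and 15.7 in HFD+veh and 8.20, 17.0 and 44.1 in HFD+eRapa. No HFD+veh animal reached the lowest ND+veh animal. Irs2 was lower in HFD+veh relative to ND+veh (log2 -2.08, SE 0.32, edgeR adjusted p = 0.000179) and higher in HFD+eRapa relative to HFD+veh (log2 1.18, SE 0.31, adjusted p = 0.00617). Akt2 was lower in HFD+veh (log2 -0.51, adjusted p = 0.0206) and higher with eRapa (log2 0.51, adjusted p = 0.0122), and with the immune marker score neither was called (adjusted p = 0.212 and 0.315). In HFD+eRapa against ND+veh Irs2 was lower (log2 -0.90, adjusted p = 0.0370), a call lost without any of ND+veh replicates 5 to 8 or HFD+eRapa replicates 2 or 4 to 9 (adjusted p up to 0.0884). In this list of 8 genes, 3 were lower in HFD+veh against ND+veh, 2 were higher in HFD+eRapa against HFD+veh, and 2 were lower in HFD+eRapa against ND+veh.

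The glucose-responsive list of 9 genes, held as targets or partners of ChREBP, had 2 higher and none lower in HFD+veh, and 1 higher and 1 lower in HFD+eRapa against HFD+veh. Gpd1, which makes glycerol 3-phosphate for triglycerides, was at 215, 337 and 433 CPM (lowest, median, highest) in ND+veh, 117, 256 and 333 in HFD+veh and 416, 695 and 783 in HFD+eRapa. It was higher in HFD+eRapa relative to HFD+veh with no overlap (log2 1.37, SE 0.19, edgeR adjusted p = 4.63e-05). Pklr, liver pyruvate kinase, gave -0.68 in HFD+veh (adjusted p = 0.0638) and -0.61 in HFD+eRapa against ND+veh (adjusted p = 0.114), neither of which passed. Mlxip, a relative of Mlxipl, was higher in HFD+veh against ND+veh (log2 0.96, adjusted p = 0.0372), a call lost without ND+veh replicates 1, 2, 3, 5 or 7 or HFD+veh replicates 3, 4 or 6 (adjusted p up to 0.149), and lower with eRapa against HFD+veh (log2 -1.40, adjusted p = 0.00313). With the immune marker score in the fit these were 0.01 (adjusted p = 0.985) and -0.31 (adjusted p = 0.501).

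Around acetyl-CoA and malonyl-CoA, Cs (citrate synthase) fell in HFD+veh (log2 -0.66, SE 0.11, edgeR adjusted p = 0.000360) and was higher in HFD+eRapa relative to HFD+veh (log2 0.53, adjusted p = 0.00133). Pdha1, a subunit of pyruvate dehydrogenase, was higher in HFD+eRapa relative to HFD+veh (log2 0.45, adjusted p = 0.000469). Slc25a1, the mitochondrial citrate carrier, was called in no comparison, with 0.50 (adjusted p = 0.0726) in HFD+eRapa against HFD+veh. Cpt1a, the entry step of fatty acid oxidation that malonyl-CoA inhibits, was higher in HFD+eRapa relative to HFD+veh (log2 0.61, adjusted p = 0.00642) and relative to ND+veh (log2 0.81, adjusted p = 0.000827). With the immune marker score the first of these was not called (log2 0.40, adjusted p = 0.117). Mid1ip1, the paralogue of Thrsp, was called in no comparison, with log2 fold changes of -0.46 to -0.12.

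For NADPH, the list of 9 genes other than Me1 had 1 higher and 1 lower in HFD+veh, and 3 lower and none higher in HFD+eRapa relative to HFD+veh. G6pdx and Pgd, the first dehydrogenases of the pentose phosphate pathway, were lower in HFD+eRapa relative to HFD+veh (log2 -2.49, adjusted p = 0.00106, and -0.79, adjusted p = 0.000723). With the immune marker score in the fit neither was called (G6pdx log2 -1.04, adjusted p = 0.0995, and Pgd log2 -0.52, adjusted p = 0.0512). In HFD+eRapa against ND+veh 4 of the list were lower, G6pdx (log2 -1.66, adjusted p = 0.0199) among them, and 1 was higher. That gene, Taldo1, of the same pathway, was higher in HFD+eRapa relative to ND+veh (log2 0.51, adjusted p = 0.000657).

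Of 11 other genes of elongation and desaturation, 3 were lower and 1 higher in HFD+veh against ND+veh, 4 were higher and 1 lower in HFD+eRapa against HFD+veh, and 1 was higher and 1 lower in HFD+eRapa against ND+veh. Elovl3, an elongase of long saturated chains, was at 65.9, 382 and 505 CPM (lowest, median, highest) in ND+veh, 23.2, 33.7 and 235 in HFD+veh and 258, 366 and 463 in HFD+eRapa. No HFD+eRapa animal was as low as any HFD+veh animal. Elovl3 was lower in HFD+veh relative to ND+veh (log2 -2.54, SE 0.46, edgeR adjusted p = 0.000800) and higher in HFD+eRapa relative to HFD+veh (log2 2.59, SE 0.46, adjusted p = 0.000461). Scd2, a desaturase of other tissues, was at 3.65 to 84.7 CPM in HFD+veh and 0.901 to 6.54 in HFD+eRapa (log2 -3.47, adjusted p = 0.000270, and -1.59, adjusted p = 0.00904, with the immune marker score in the fit). Its rise in HFD+veh against ND+veh (log2 2.17, adjusted p = 0.0104) was 0.35 (adjusted p = 0.618) with that score. Hacd3, a dehydratase of the elongation cycle, was higher in HFD+eRapa relative to HFD+veh (log2 0.47, adjusted p = 0.000251).

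In triglyceride assembly, Pnpla3, a lipase family gene on lipid droplets that SREBP1 controls, had the lowest log2 fold changes against ND+veh of the listed genes in both high-fat groups. It was at 1.13, 9.49 and 25.9 CPM (lowest, median, highest) in ND+veh, 0.463, 0.925 and 3.002 in HFD+veh and 0.0563, 0.186 and 2.15 in HFD+eRapa. The HFD+eRapa values were near the floor of the counts, so the size of the Pnpla3 fold changes there is uncertain. The log2 fold change was -2.92 in HFD+veh (SE 0.64, edgeR adjusted p = 0.00317) and -4.53 in HFD+eRapa (SE 0.63, adjusted p = 3.80e-05) against ND+veh. Between the high-fat groups it was -1.61 (adjusted p = 0.0488), and that call held in the removal of ND+veh replicates 2 or 4, HFD+veh replicates 1, 2, 5 or 7 or HFD+eRapa replicate 5 but in none of the other 17 removals (adjusted p up to 0.141). Mogat1, a monoacylglycerol acyltransferase, rose from a mean of 1.46 CPM in ND+veh to 4.69 in HFD+veh (log2 1.68, adjusted p = 0.00483) and 6.96 in HFD+eRapa (log2 2.25, adjusted p = 0.000263). With the immune marker score the first of these calls was lost (adjusted p = 0.0714). Acsl1, which activates fatty acids, was higher in HFD+eRapa relative to HFD+veh (log2 1.00, adjusted p = 0.00118).

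**Figure D4:**
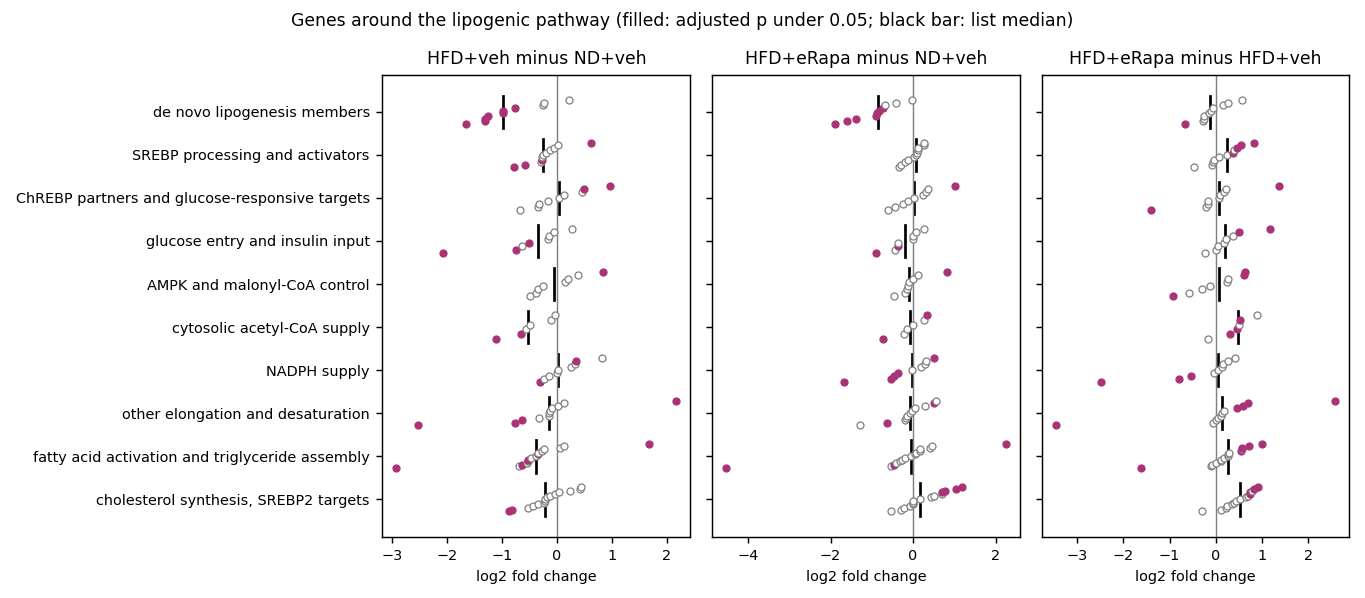
Log2 fold change of every gene in the lipogenic group, in 8 lists around the pathway and in a list of cholesterol synthesis genes, in the 3 comparisons; each point is 1 gene, filled where the edgeR adjusted p is under 0.05, and black bars are list medians. The median of the lipogenic genes is -0.99 and -0.85 against ND+veh and -0.13 between the high-fat groups, where the cholesterol list has 0.52.

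The cholesterol synthesis genes, the usual targets of SREBP2, were set beside the lipogenic genes. Of these 15 genes, 2 were called lower in HFD+veh relative to ND+veh and none higher. In HFD+eRapa 4 were higher and none lower relative to HFD+veh, and 4 were higher and none lower relative to ND+veh. Over all genes, 9.86% were lower in the first comparison, 10.9% higher in the second and 6.93% higher in the last. Hmgcs1, the synthase at the head of the pathway, was higher in HFD+eRapa relative to HFD+veh (log2 0.82, SE 0.25, edgeR adjusted p = 0.0170) and relative to ND+veh (log2 1.05, SE 0.25, adjusted p = 0.00497). Mvk and Fdft1 gave 0.91 (adjusted p = 0.00794) and 0.74 (adjusted p = 0.00875) between the high-fat groups. With the immune marker score the calls of Mvk and Fdft1 were lost (adjusted p = 0.189 and 0.107). The lipogenic genes had a median of -0.85 in HFD+eRapa against ND+veh where the cholesterol genes had 0.17. The difference between both lists was not tested.

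Within groups, most pairs of lipogenic genes had a positive correlation across animals. Pearson's r of log2 CPM was computed for the 45 pairs of genes in each group, 135 relations in all, with exact permutation tests adjusted over these. In ND+veh 42 of 45 pairs had a positive r (median 0.78), and in HFD+veh all 45 (median 0.70). Without ND+veh replicate 4 the median in ND+veh was 0.50, with 35 of 45 positive. Without HFD+veh replicate 6 the median in HFD+veh was 0.46, with 32 of 45 positive. Mlxipl fell into separate clusters of 4 and 5 animals in HFD+eRapa, so its relations there were set aside in the counts of that group. Its relations in ND+veh and HFD+veh (median r 0.20 and 0.81) were kept, though replicates 1 to 4 were above the later ones there as well. Of the 36 pairs left in HFD+eRapa, 35 were positive (median 0.46). With the relations of Mlxipl in HFD+eRapa set aside, 10 pairs had an adjusted p under 0.05, and 11 of all 135 did. No pair passed on Spearman's rho, for which 30 of 135 had an unadjusted p under 0.05.

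In HFD+veh the pairs that passed were Acly with Acaca and Fasn, Acaca with Fasn, and Acacb with Thrsp. Acly and Acaca had an r of 0.94 (exact permutation p = 0.00238, adjusted p = 0.0402, n = 7) and a rho of 0.96 (exact p = 0.00278, adjusted p = 0.0593). Without the 2 animals farthest from the median of Acly, r was 0.87. In HFD+eRapa Acaca and Fasn had an r of 0.92 (exact permutation p = 0.000818, adjusted p = 0.0335, n = 9), a rho of 0.92 (exact p = 0.00131, adjusted p = 0.0593) and an r of 0.91 without the 2 animals farthest from the median of Acaca. The 5 pairs that passed in ND+veh (Acly with Fasn and Elovl6, Elovl6 with Acaca and Fasn, Fasn with Thrsp) had an r of 0.92 to 0.96 with all animals and of 0.74 to 0.85 without replicate 4. For Acly and Elovl6, r fell from 0.96 (exact permutation p = 0.00273, adjusted p = 0.0402, n = 8; rho 0.83, exact p = 0.0154, adjusted p = 0.148) to 0.73 without the 2 animals farthest from the median of Acly. On log2(FPKM + 1), 1 of the 135 pairs passed.

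**Figure D5:**
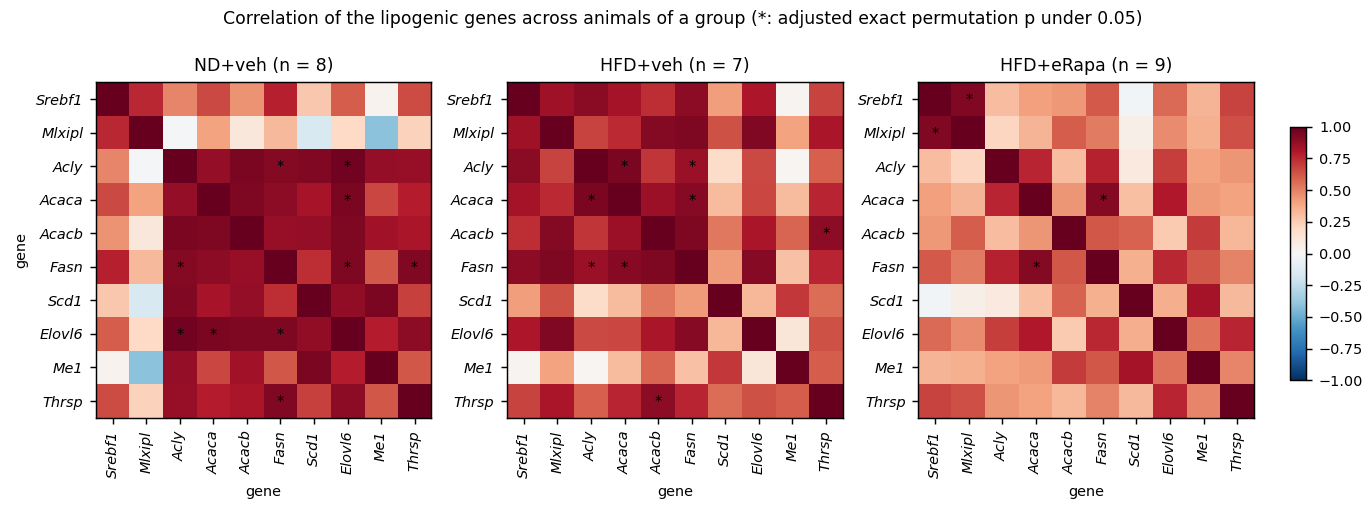
Pearson's r of log2 CPM between each pair of lipogenic genes across the animals of a group (ND+veh, n = 8; HFD+veh, n = 7; HFD+eRapa, n = 9), coloured from -1 (blue) to 1 (red). Asterisks mark an adjusted exact permutation p under 0.05. Srebf1 with Mlxipl in HFD+eRapa carries an asterisk (r 0.93, and 0.81 without the 2 animals farthest from the median of Srebf1). Mlxipl lay in separate clusters there, and their part in this r was not tested. In ND+veh the median r of Mlxipl with the others is 0.20.

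The gene most like the lipogenic genes was Pklr. Among 7963 other genes with a mean log2 CPM of at least 3, it had the highest r with the mean z-score of the 10 genes over the 24 animals (0.94), as a description. Hcn3, an ion channel gene, came next (0.93), followed by Il11ra1 (0.88), Plpp6 (0.87), Orai1 (0.87) and Capn10 (0.86). Pklr (chr3:89136142-89146784, plus strand) and Hcn3 (chr3:89146074-89160196, minus strand) overlap by 711 bases, so without knowledge of strand in the counting their reads cannot be told apart there. After removal of the group means Pklr was again first (0.93), with Adipor2, Hcn3, Paqr9, Cyp27a1 and Mtfp1 behind it.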

How the data were processed

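The authors aligned reads with STAR to mm10 with the Gencode M23 annotation, filtered them with SAMtools 1.1.0 and counted reads per gene with HTSeq 0.11.2 (versions per the submitters' processing notes). The deposited counts are raw. The deposited FPKM values were made by the authors with Cufflinks and were used for levels between genes and in alternative fits.

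Counts of all 24 libraries were fitted together in edgeR 4.0.16 (R 4.3.3), with filterByExpr, TMM scaling, a robust quasi-likelihood test and no covariate. P-values were adjusted over 13847 genes (Benjamini-Hochberg). A called gene has an adjusted p below 0.05. CPM use TMM scaling, and log2 CPM a prior count of 2. On simulated counts, edgeR recovered 116 of 200 genes raised or lowered by 1 on the log2 scale in HFD+veh against ND+veh, with 8 false calls. No 2 libraries of a group agreed within sampling noise. Intervals are 95%. P-values measure the spread between the animals of the labels.

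The 10 genes and the lists were chosen with earlier results of these data known. Named genes were all 10, at most 3 of each list with the smallest adjusted p, 9 regulators and enzymes named whatever their values, and the 6 genes most like the 10; some results under this rule are not reported here. Alternatives were DESeq2 1.42.0, limma 3.58.1 voom, other scalings and filters, FPKM, covariates, a replicate block and the removal of each library. The covariate from the clock genes Dbp and Arntl was chosen after seeing the data. So were the joint removal of ND+veh replicate 4 and HFD+veh replicate 6, and their removal from the relations. The Mlxipl relations in HFD+eRapa were also set aside after seeing the data.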

Additional observations from a re-analysis of the deposited data

Results flagged for a closer look

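Dixon's test at the 95% level was applied to the 10 lipogenic genes, total counts and marker sums in each group, 57 groups of values, of which chance alone flags about 1 in 20. It marked 7 values, 6 of them in ND+veh replicate 4. In log2 CPM this animal was at 6.78 in Acly (others 8.92 to 9.73), 12.2 in Scd1 (others 14.1 to 14.9), 6.24 in Elovl6 (others 7.48 to 8.38) and 7.10 in Me1 (others 8.58 to 9.57). Its summed hepatocyte markers were at 15.7 on the log2(CPM + 1) scale (others 16.7 to 17.3) and its summed cholangiocyte markers at 4.42 (others 2.57 to 3.23). The last value was the total count of HFD+veh replicate 3, 19.8 M counts where the others had 21.3 to 22.03 M. The cause of these was not tested.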

How the results depend on the processing

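Over 36 alternatives the 10 log2 fold changes kept their side of the threshold in 352 of 360 values for HFD+veh against ND+veh, 342 of 360 for HFD+eRapa against HFD+veh and 355 of 360 for HFD+eRapa against ND+veh, and no called value changed sign. Scd1, Acacb, Elovl6 and Me1 were called in HFD+veh against ND+veh under all 36, and Scd1, Fasn, Acacb, Acaca and Acly in HFD+eRapa against ND+veh.

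Of the 10 genes, 4 rather than 7 were called in HFD+veh against ND+veh with the immune marker score. In HFD+eRapa against HFD+veh the count moved from 1 to 0 with voom, with no filter and with the replicate block, and to 2 with the immune score. Single removals gave 6 to 7, 0 to 1, and 7 called genes in the 3 comparisons in turn.

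Over all genes, 3584 calls in HFD+veh against ND+veh became 1866 with voom, 2333 in a fit of only those groups, 1215 with the immune score, 5973 with the clock ratio, 2300 with both libraries removed and 2242 on log2(FPKM + 0.1), and 2106 to 4479 in single removals, the lowest without HFD+veh replicate 6. The 4432 calls in HFD+eRapa against HFD+veh became 2809 with at least 10 counts in every library, 2532 with the replicate block and 984 with the immune score. The 1865 in HFD+eRapa against ND+veh ran from 1462 to 2232 in single removals. On log2(FPKM + 0.1) the median of all genes moved to -0.10 and -0.12 in both eRapa comparisons.

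Replicate numbers belong to different animals. Same-numbered libraries had a mean correlation of deviations of 0.32, -0.24 and -0.20 in the 3 comparisons, so the numbers were not taken as pairs. Single values ran from -0.36 to 0.73, -0.66 to 0.49 and -0.52 to 0.37, with 5 of 7, 2 of 7 and 2 of 8 over 0.1. In Mlxipl and Dbp, replicates 1 to 4 were above the later ones in ND+veh and HFD+veh and below them in HFD+eRapa. What the replicate numbers share was not tested. With the replicate block Mlxipl was not called in HFD+veh against ND+veh (adjusted p = 0.0603), nor Acly between the high-fat groups (adjusted p = 0.0737), nor Elovl6 and Me1 in HFD+eRapa against ND+veh (adjusted p = 0.0558 and 0.0575). Of 7, 7 and 8 libraries, 2, 0 and 0 correlated best with their own number.

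Mlxipl was called in HFD+eRapa against ND+veh with the immune score (log2 -0.88) and with the clock ratio (log2 -1.79), and with the ratio Me1 was not called there (adjusted p = 0.172). Relations with an adjusted p under 0.05 fell from 11 to 1 on log2(FPKM + 1). All 10 genes had the same order of group means in CPM and FPKM. Of the 6 most alike genes, 2 were shared after removal of group means. The causes of these changes were not tested. Of 50 calls among the named genes of the wider lists, 38 held in every single removal and 27 with the immune score.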
